A study of Mus musculus with 2 samples.

Results

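The miR-30 family was described in the gastrocnemius, the large calf muscle, of the mouse. Its genes were taken by name from the GENCODE M21 annotation: Mir30a, Mir30b, Mir30c-1, Mir30c-2, Mir30d, Mir30e and Mir30f, which are 7 of the 2202 microRNA genes counted. Of these, 6 were detected and Mir30f had no read on its own strand. The tissue came from male adult mice of the strain labelled 5xFAD/CAST, aged 8 to 10 months, and RNA below 30 bases was sequenced. 5xFAD mice carry mutant human amyloid precursor and presenilin transgenes under a neuronal promoter, and CAST is a wild-derived strain; no label gives the transgene status of the sampled mice. The 2 libraries form 1 group, biological replicates 1 and 2, from different tissue samples with a common donor record. Whether these were different animals is not stated, so the SD between libraries may be partly technical, and there was no second condition to compare.

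A microRNA is cut from the stem of a hairpin transcript, and either arm of the stem, called 5p or 3p, can be loaded into an Argonaute protein. Bases 2 to 8 of the loaded strand, the seed, pair with target messenger RNAs and lower their output. The miR-30 family is defined by a common seed on the 5p arm. It is found in many differentiated tissues, heart and skeletal muscle among them, and is known for repressing connective tissue growth factor in the heart and for a part in myoblast differentiation.

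The genes lie in pairs at 3 places of the genome (build mm10). Mir30a (ENSMUSG00000065405.3) is at chr1:23272269-23272339 on the plus strand and overlaps no other annotated gene. Its partner Mir30c-2 (ENSMUSG00000065567.1) follows 19361 bases on, at chr1:23291701-23291784, wholly within an exon of the lincRNA Gm27028. Mir30b (ENSMUSG00000065476.2) at chr15:68337415-68337510 and Mir30d (ENSMUSG00000065437.1) at chr15:68341208-68341289 are on the minus strand, 3697 bases apart. Mir30b overlaps an exon of the processed transcript Gm26621 by 16 bases, and Mir30d lies within an exon of the lincRNA Gm20732. Mir30c-1 (ENSMUSG00000065490.1) at chr4:120769534-120769622 and Mir30e (ENSMUSG00000065409.1) at chr4:120772606-120772697 are 2983 bases apart, both in introns of Nfyc, which encodes a subunit of the transcription factor NF-Y, on the same strand as Nfyc. Mir30f (ENSMUSG00000105585.1) covers all 92 bases of Mir30e on the opposite strand. No microRNA gene outside the family lies within 10 kb of any member.

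The mature sequences show which members a short read can tell apart, and RefSeq (GRCm38.p6) gave them for 5 of the 7 members. They are written 5′ to 3′ with the seed in capitals, first the 5p arms, which carry the family seed:
miR-30a-5p: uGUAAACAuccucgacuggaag
miR-30e-5p: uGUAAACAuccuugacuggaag
miR-30c-5p, from both Mir30c-1 and Mir30c-2: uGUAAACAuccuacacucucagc
The 3p arms and the mature strand of Mir30f carry other seeds:
miR-30a-3p: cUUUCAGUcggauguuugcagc
miR-30e-3p: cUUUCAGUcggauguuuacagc
miR-30c-1-3p: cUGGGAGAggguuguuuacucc
miR-30c-2-3p: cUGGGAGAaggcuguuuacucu
miR-30f: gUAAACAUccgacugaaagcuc

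The 5p arms of Mir30a, Mir30c and Mir30e share the seed GUAAACA and their first 12 bases. With positions counted from 1 at the 5′ end, miR-30a-5p and miR-30e-5p differ by C13U alone, and miR-30a-3p and miR-30e-3p by G18A alone. The 23 bases of miR-30c-5p are the same at Mir30c-1 and Mir30c-2. These hairpins share a run of 28 bases, uguaaacauccuacacucucagcuguga, which contains the whole 5p arm, while the 3p arms of Mir30c-1 and Mir30c-2 differ by G9A, U12C and C22U. Mir30a and Mir30e share at most 18 bases in a row, and the other pairs among these 4 hairpins share 12. No microRNA hairpin outside the family in the RefSeq table shared more than 11 bases in a row with any of them. The files count reads per gene and do not separate the arms.

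The seed of miR-30f is shifted by 1 base against the family seed, since its first bases match the family sequence from base 2 on. Its mature strand is complementary to 19 of the 22 bases of miR-30e-3p. Among 1679 named mature microRNAs in the RefSeq table, 1 outside the family, miR-384-5p, has the seed GUAAACA: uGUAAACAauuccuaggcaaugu. Its gene Mir384 had 2 reads in replicate 1 and 1 in replicate 2, below the detection minimum. The seed UGGGAGA of the Mir30c 3p arms is found in 1 other mature microRNA, miR-6958-5p, whose gene Mir6958 had 1 read and 0 reads. The seeds UUUCAGU and UAAACAU were in no other.

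RNAfold predicted the most stable fold per base for the Mir30e hairpin, at -0.56 kcal/mol per base, then Mir30a at -0.52, Mir30c-1 at -0.39 and Mir30c-2 at -0.35. Over whole hairpins these energies were -51.8, -37.2, -34.3 and -29.4 kcal/mol.

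Replicate 1 held 6119818 reads, of which 1157420 lay on the strand of a microRNA gene (sense reads), and replicate 2 held 6632802 and 1193393. Levels are CPM, reads scaled to a total of 1000000 sense reads; mature arms are nearly equal in length, so no length scaling was applied. Reads aligned to several places made up 60.2% and 63.2% of the libraries and are counted in no gene. Of 9 skeletal muscle marker genes 8 were detected, with 3.87% and 3.73% of sense reads in replicates 1 and 2. Mir206 led with 38135 and 39300 reads, then Mir486 with 5963 and 4423, Mir499 with 441 and 555 and Mir208b with 120 and 170. Mir1a-2 had 60 and 54 reads, Mir133b 27 and 10, Mir133a-1 24 and 6 and Mir1a-1 14 and 9. The endothelial marker Mir126a held 8.08% and 13.8%, smooth muscle markers 5.08% and 4.21%, leukocyte markers 0.318% and 0.225%, and erythroid markers 0.0163% and 0.0153%. Of 6 nerve markers (the Mir124a and Mir9 genes) 5 had no read in either library, the heart marker Mir208a had 13 and 22 reads, and the liver marker Mir122 had 12 and 13. Markers with numbered gene copies, as Mir1a, Mir133a, Mir124a and Mir9, can lose reads that align to several copies. Their counts here can thus be too low, to an extent that was not tested. In a whole tissue, fewer cells of a type and less RNA per cell cannot be told apart either.

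Mir30a was the leading member, with 18038 reads in replicate 1 and 18114 in replicate 2. This came to 15585 and 15179 CPM, a mean of 15382 ± 287 CPM (SD, n = 2). By counted reads it was the 17th highest level of 321 detected genes. Genes that lose reads aligned to several places can stand too low in this order, to an extent that was not tested. Mir30d followed with 8605 and 7016 reads, 6657 ± 1100 CPM (SD, n = 2), and Mir30e with 3106 and 3800 reads, 2934 ± 354 CPM (SD, n = 2). Mir30d was above Mir30e in both libraries; Mir30d had more reads in replicate 1 and Mir30e more in replicate 2. By counted reads these 3 genes are the higher partners of the 3 places, 1 at each. At the places of Mir30a and Mir30e the other partner is a Mir30c gene. Reads that match both Mir30c genes are counted in neither, so the counts cannot decide which partner is dominant there.

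The other partner at each place had far fewer counted reads. For Mir30c-1 and Mir30c-2 a read of the whole 5p arm matches both genes, and such multiply aligned reads were not assigned to a gene, so their counts can leave out 5p reads, to a number that is not known. Mir30c-2 had 709 and 563 reads in replicates 1 and 2, 542 ± 99.6 CPM (SD, n = 2). Mir30b had 242 and 177 reads, 179 ± 43.0 CPM (SD, n = 2), and Mir30c-1 had 91 and 57 reads, 63.2 ± 21.8 CPM (SD, n = 2). All 3 had fewer reads in replicate 2, although that library was the larger. Exact Clopper-Pearson 95% intervals for counting error ran from 568 to 659 CPM in replicate 1 and from 434 to 512 CPM in replicate 2 for Mir30c-2. They ran from 63.3 to 96.5 CPM and from 36.2 to 61.9 CPM for Mir30c-1.

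**Figure D1:**
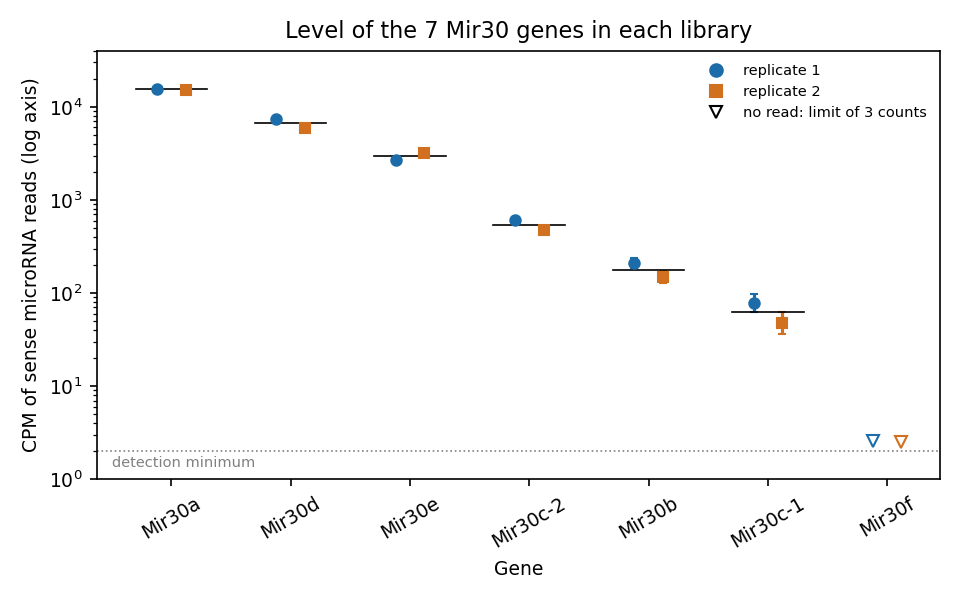
CPM of sense microRNA reads (log axis) for each Mir30 gene, circles for replicate 1 and squares for replicate 2, with exact 95% intervals for counting error and a bar at the mean. The levels fall from 15382 CPM for Mir30a to 63.2 CPM for Mir30c-1, and the open triangles give the limit of 3 counts for Mir30f, which had no read.

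The 6 detected levels, as counted, spanned 243-fold from Mir30a to Mir30c-1, whose counts can leave out the 5p arm it shares with Mir30c-2. No 2 neighbours in this order had overlapping ranges over the libraries. Mir30a was 2.10 and 2.58 times Mir30d in replicates 1 and 2, and Mir30d was 2.77 and 1.85 times Mir30e. Mir30e was 4.38 and 6.75 times Mir30c-2. The steps from Mir30c-2 to Mir30b, of 2.93 and 3.18 times, and from Mir30b to Mir30c-1, of 2.66 and 3.11 times, were closer between the libraries. With 2 libraries the order has no test beyond this lack of overlap.

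On the CPM scale Mir30a varied least between the libraries, with a coefficient of variation of 1.87%, where counting error alone gives 0.744%. Of 57 genes at 1000 CPM or more, 2 had a smaller one, and their median was 18.5%. The coefficient was 12.1% for Mir30e and 16.5% for Mir30d, where counting error gives 1.70% and 1.13%. It rose to 18.4% for Mir30c-2, 24.0% for Mir30b and 34.5% for Mir30c-1, where counting error gives 3.97%, 6.91% and 11.6%. On this scale every detected member varied by more than counting error gives on average. After TMM scaling the order turned over: the coefficient, computed so after the data were seen, was smallest for Mir30d at 1.57%, then 3.44% for Mir30c-2, which is below its counting value, 9.24% for Mir30b, 13.1% for Mir30a, 20.1% for Mir30c-1 and 26.8% for Mir30e.

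The genes nearest to each member in mean CPM were named as those most like it in level over the 2 libraries. For Mir30a these were Mir149 above it at 16241 ± 990 CPM and Mir29a below it at 14166 ± 3481 CPM (SD, n = 2). Mir30d stood between Mir151 and Mir191, and Mir30e between Mir196a-2 and Mir328. Mir30c-2 stood between Mir497 and Mirlet7c-2, Mir30b between Mir25 and Mir574, and Mir30c-1 between Mir184 and Mir223. The range of each of these 12 neighbours overlapped that of its member, so their order does not hold beyond the spread between libraries.

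**Figure D2:**
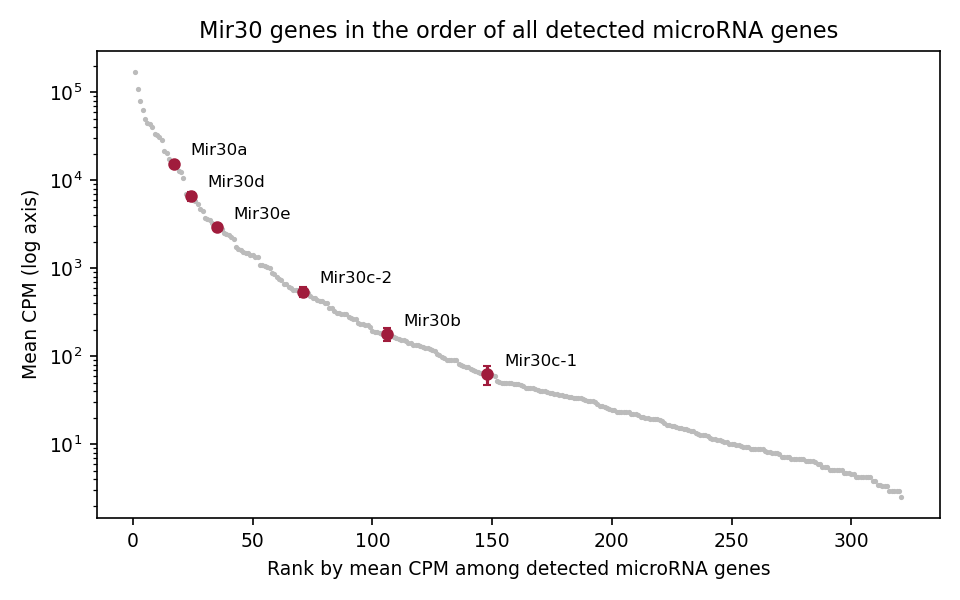
Mean CPM (log axis) of the 321 detected microRNA genes against their rank, with the Mir30 genes in red and bars from the lower to the higher library. By counted reads, Mir30a, Mir30d and Mir30e stand at ranks 17, 24 and 35, and Mir30c-2, Mir30b and Mir30c-1 at 71, 106 and 148.

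Partners were then compared within each place, which does not depend on how the libraries are scaled. At each of the 3 places 1 partner held nearly all counted reads; the shares of both Mir30c genes are of counted reads and can leave out their common 5p arm. Mir30c-2 held 3.78% of the reads of Mir30a and Mir30c-2 in replicate 1 (95% interval 3.51% to 4.06%) and 3.01% in replicate 2 (2.77% to 3.27%). Mir30b held 2.74% of the reads of Mir30d and Mir30b (2.41% to 3.10%) and 2.46% (2.12% to 2.85%). Mir30c-1 held 2.85% of the reads of Mir30e and Mir30c-1 (2.30% to 3.48%) and 1.48% (1.12% to 1.91%). The lower share of each partner was in replicate 2.

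Fisher's exact test, two-sided and adjusted over the 3 places, compared these shares between the libraries, not between conditions. The odds of Mir30a against Mir30c-2 were 1.26 times higher in replicate 2 (95% interval 1.13 to 1.42, adjusted p = 0.00012 by Fisher's exact test). Those of Mir30e against Mir30c-1 were 1.95 times higher (1.38 to 2.78, adjusted p = 0.00012 by Fisher's exact test). For Mir30d against Mir30b the odds ratio was 1.11 (0.912 to 1.36, adjusted p = 0.30 by Fisher's exact test), an interval that includes no change. The partner shares of both Mir30c genes thus differed between the libraries beyond counting error. Both hairpins carry the 28-base run shown above, and the share of reads aligned to several places also differed, at 60.2% and 63.2%; its part in this difference was not tested.

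Summed by place, Mir30a and Mir30c-2 held 61.9% ± 1.37 of the family's counted reads (SD, n = 2), Mir30d and Mir30b 26.5% ± 3.21, and Mir30e and Mir30c-1 11.7% ± 1.83. Mir30d took 27.9% of the family's reads in replicate 1 (95% interval 27.4% to 28.5%) and 23.6% in replicate 2 (23.1% to 24.1%). Mir30e took 10.1% (9.75% to 10.4%) and 12.8% (12.4% to 13.2%), and Mir30a 58.6% (58.0% to 59.1%) and 60.9% (60.4% to 61.5%). The counting intervals of the libraries do not overlap for any of these 3 genes. Mir30b, Mir30c-1 and Mir30c-2 together took 3.38% and 2.68%.

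**Figure D3:**
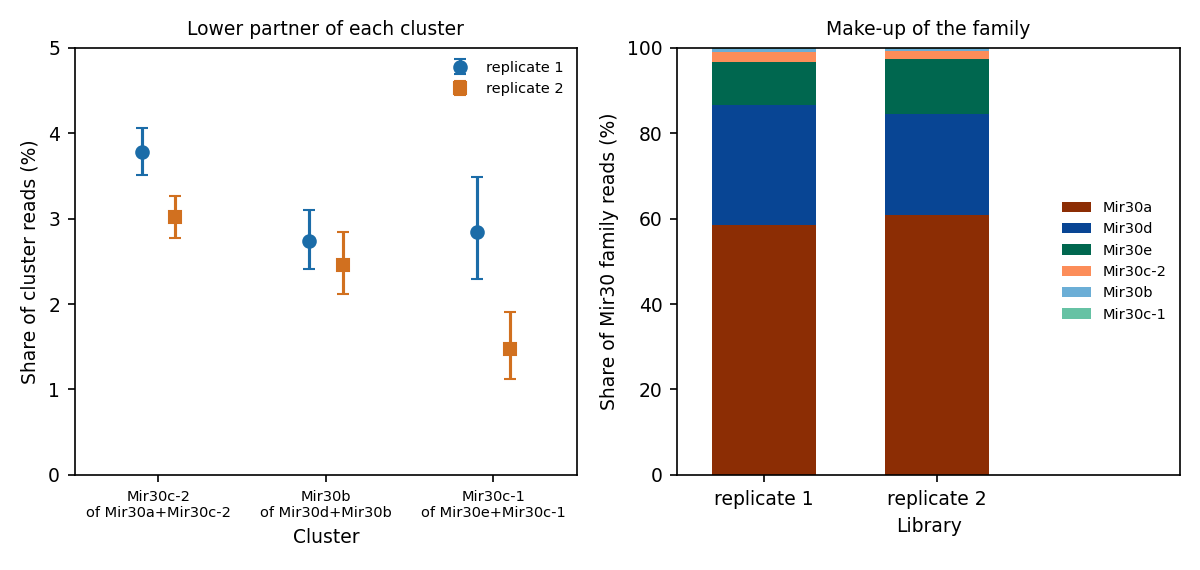
Left, share (%) of the reads of each pair that its lower partner held, circles for replicate 1 and squares for replicate 2 with exact 95% intervals; the shares lie between 1.48% and 3.78%. Right, share (%) of the Mir30 family's reads by gene in each library; Mir30a, Mir30d and Mir30e together make up 96.6% of replicate 1 and 97.3% of replicate 2.

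Mir30e and Mir30f could be told apart only by strand, since they cover the same bases. On the Mir30e strand 3106 and 3800 reads were counted in replicates 1 and 2, and on the Mir30f strand 0 in each, which allows up to 2.59 and 2.51 CPM (3 counts of the total). In the column that ignores strand both genes are listed at 0. That column has a line of ambiguous reads, 325180 and 375109, which is 0 in the stranded columns. The other 5 members had the same count with and without strand and no read on their opposite strand.

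The level of each member was compared between replicate 2 and replicate 1 with a two-sided exact binomial test, scaled by TMM, which assumes that most genes are equal. This compares the 2 libraries only. The test called 37.4% of the 321 detected genes different, 18.7% higher and 18.7% lower in replicate 2, and 2 of the 6 detected Mir30 genes, both higher. For Mir30e replicate 2 exceeded replicate 1 by 1.47 times (95% interval 1.40 to 1.54), with an adjusted p of 9.4e-56 by the exact binomial test. For Mir30a it did so by 1.20 times (1.18 to 1.23), with an adjusted p of 1.1e-68 by the same exact test. Such p-values rest on counting error alone.

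The other 4 did not pass: the ratio of replicate 2 to replicate 1 was 0.978 for Mir30d (0.948 to 1.01), 0.952 for Mir30c-2 (0.851 to 1.07), 0.877 for Mir30b (0.719 to 1.07) and 0.751 for Mir30c-1 (0.530 to 1.06). Each interval includes no change. The median log2 ratio of the 6 genes was -0.05, against -0.01 over all detected genes. Mir30a, Mir30d and Mir30e are among 57 genes that reach 1000 CPM, of which 15 had a larger log2 ratio in size than Mir30e, 30 than Mir30a and 55 than Mir30d.

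The direction of Mir30a depended on the scaling. Scaling by total counts shifted the median over all detected genes by -0.29 on the log2 scale; 46.4% of genes were then called, 10.9% higher and 35.5% lower in replicate 2. All 6 Mir30 genes passed, Mir30e higher at 1.19-fold and the other 5 lower. For Mir30a replicate 1 exceeded replicate 2 by 1.03-fold (adjusted p = 0.028 by the exact binomial test), for Mir30d by 1.26-fold, for Mir30c-2 by 1.30-fold, for Mir30b by 1.41-fold and for Mir30c-1 by 1.65-fold. Mir30e was thus the 1 member higher in replicate 2 under both scalings. The edgeR exact test with a fixed dispersion of 0.01, which adds a spread beyond counting, called 16.5% of genes and 1 member, Mir30e. That call was narrow, just under the threshold of 0.05, and the dispersion was set and not estimated. With the column of both strands 33.5% were called and 1 member, Mir30a, since Mir30e is at 0 there. The endothelial marker Mir126a, at 8.08% and 13.8% of sense reads, was also higher in replicate 2. With TMM scaling it was among the 18.7% of detected genes called higher there, and its part in these differences was not tested.

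**Figure D4:**
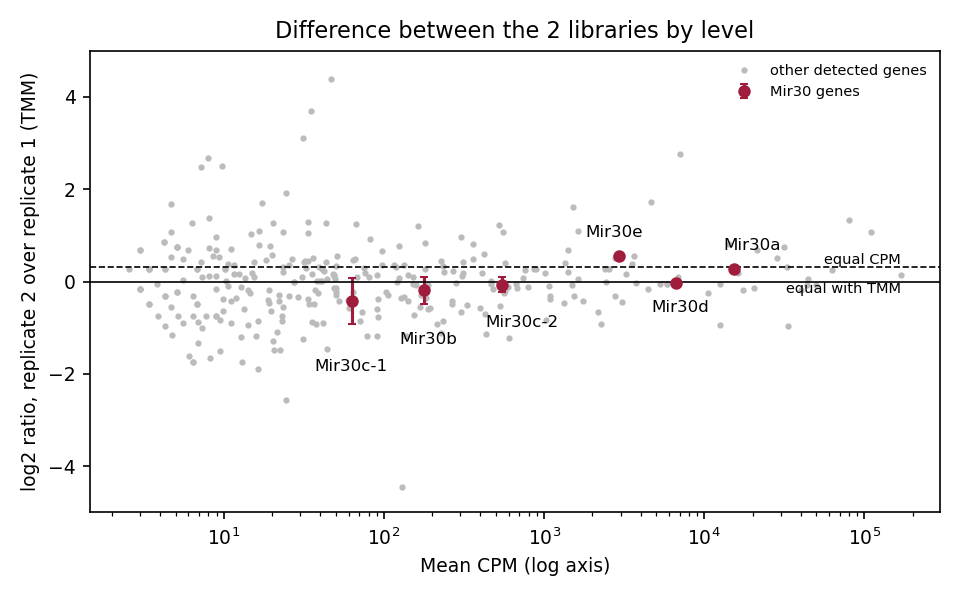
Log2 ratio of replicate 2 over replicate 1 after TMM scaling against mean CPM (log axis), with the other detected genes in grey and the 6 detected Mir30 genes in red with exact 95% intervals. The solid line is equality with TMM and the dashed line equal CPM; Mir30e lies above both lines, and Mir30a above the solid and just below the dashed one.

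The family as a whole held 30791 of the sense reads in replicate 1 and 29727 in replicate 2, or 2.66% (95% interval 2.63% to 2.69%) and 2.49% (2.46% to 2.52%). Measured the same way, the 12 genes of let-7, a large family of differentiated tissue, held 22.9% and 16.9%, and the 4 genes of miR-29, known for repressing matrix genes, 1.30% and 1.88%. The miR-30 share lay between those of let-7 and miR-29 in both libraries. With 2 libraries this order was not tested. The leading gene of miR-30 held 59.7% of that family's mean CPM, against 31.4% for Mirlet7g in let-7 and 89.2% for Mir29a in miR-29. All these shares are of counted reads and leave out those aligned to several places. Members with numbered gene copies, as Mir30c, Mirlet7a, Mirlet7c, Mirlet7f and Mir29b, can thus be undercounted, to an extent that was not tested. With TMM, 2 of the 12 let-7 genes were higher and 8 lower in replicate 2, with a median log2 ratio of -0.27. Of the 4 miR-29 genes 2 were higher and none lower, with a median of 0.55. Over all 321 detected genes 18.7% were higher and 18.7% lower, with a median of -0.01.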

How the data were processed

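Small RNA was counted in 2 libraries of mouse gastrocnemius. The deposited files hold raw read counts per microRNA gene in 3 columns without a header: both strands, the gene's strand and the opposite strand. Per the deposited text descriptions, reads were placed on mm10 and counted against release M21 of GENCODE. An aligner is not given in the sources used here. In the files, 4 leading lines of totals name no gene and hold 81.1% and 82.0% of the reads; library sizes and tests leave them out. Clopper-Pearson intervals at 95% and the limit of 3 counts describe counting error alone, because reads amplified by PCR and carrying no molecular identifier need not be independent.

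Genes at 2 CPM or more in both libraries were called detected. Ratios used TMM sizes (edgeR 4.0.16, R 4.3.3; factors 1.11 and 0.899), and log2 ratios a pseudocount of 1 CPM. Exact binomial p-values were adjusted by Benjamini-Hochberg over all detected genes, with a threshold of 0.05. The step was tested on simulated counts that held counting error alone, which cannot show its behaviour under a wider spread. No quasi-likelihood test was possible with 1 group. Hairpins were folded with RNAfold 2.7.2. Python 3.11.15, scipy 1.17.1 and DESeq2 1.42.0 served the rest. All 7 members are named, with the detected gene directly above and below each in mean CPM. Members, lists and tests were chosen with earlier results of these data known. Copies of the mature arms across the whole genome were not counted here.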

Additional observations from a re-analysis of the deposited data

Results flagged for a closer look

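Mir30f showed reads in the column of the opposite strand, which the levels do not use: 3106 in replicate 1 and 3800 in replicate 2, above the limit of 3 counts. These numbers equal the counts of Mir30e on its own strand in each library, and both genes cover the same 92 bases.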

How the results depend on the processing

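The share of sense reads held by the Mir30 family, 2.58% on average, was 3.25% with the column of both strands. It was 0.476% with all reads as the denominator. With a denominator without Mir378a, the gene with the most counted reads, it was 3.10%. The column of both strands lists Mir30e at 0 and holds 832260 and 818309 reads in replicates 1 and 2, a smaller total. The mean family share was also 2.58% with TMM sizes. The TMM factors, 1.11 and 0.899, move the 2 libraries in opposite directions, so their mean hardly changes. This mean therefore does not show that the share in each library is stable. With only 2 libraries, leaving out 1 gives the value of the other, which says nothing on stability. With the column of both strands, Mir30c-1 held 100% of the reads of Mir30e and Mir30c-1, since Mir30e is listed at 0 there. The number of Mir30 genes that differed between the libraries, 2 in the main setting, was 6 with total counts only, 1 with the edgeR exact test and 1 with both strands counted together. It was 2 with DESeq2 size factors, no filter, a filter of 10 CPM or a pseudocount of 0.1 CPM. The calls over all genes changed too. They were 120 of 321 in the main setting, 149 of 321 with total counts and 53 of 321 with the edgeR test. With both strands they were 110 of 328, and with DESeq2 size factors 118 of 321. They were 115 of 569 with no filter, 110 of 232 with the 10 CPM filter and 120 of 321 with the other pseudocount. The log2 ratio of Mir30a was 0.27 and turned to -0.038 with total counts only. That of Mir30d, -0.03 and not called, was 0.011 with no filter and 0.0065 with both strands counted together. The smallest members, Mir30b and Mir30c-1, rest on 57 to 242 reads a library. A ratio between libraries cannot be formed without a replicate.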
